A study of Mus musculus with 24 samples.

Results

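The proteasome is the barrel-shaped protease that degrades ubiquitin-tagged proteins in every nucleated cell. Its core particle stacks outer rings of alpha subunits, which gate the entrance, on inner rings of beta subunits, which hold the cutting sites. A regulatory particle caps the core: its base of ATPases unfolds the substrate and its lid removes the ubiquitin chain. Other activators can take the cap's place, and dedicated chaperones help to build the particle without staying in it.

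The genes described here were chosen by name: array probes whose gene symbol starts with Psma, Psmb, Psmc, Psmd, Psme, Psmf or Psmg followed by a digit, without the immunoproteasome genes Psmb8, Psmb9 and Psmb10, and with a signal well above background on at least 6 of 24 arrays. Where several probes read a gene, the brightest was used. The name pattern matched 46 genes, and 45 passed, out of 23966 genes tested in all; Psmb11 was well above background on 0 arrays and was left out. All 45 were well above background on 24 of 24 arrays, and none was saturated. They comprise 8 alpha and 7 beta core genes, 9 base genes, 8 lid genes, 5 activators or inhibitors, 7 assembly factors and Psmc3ip. Psmc3ip encodes a partner protein in meiotic recombination, is no proteasome gene, and is set apart below.

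Livers came from 24 wild-type male C57Bl/6J mice aged 8 weeks, 6 per group and 1 array per mouse, taken at ZT16, that is, 16 h after lights-on. One group was fasted for 24 h; the others ate chow freely for the same 24 h and drank 20% glucose, 20% fructose or plain tap water (called the water group). Values are log2 probe signals relative to the 75th percentile of each array's probes, so a difference of 1 is a 2-fold difference. Levels of different genes come from different probes and are not set against each other. Groups were compared with limma over all genes, and a gene was called at a Benjamini-Hochberg adjusted p under 0.05.

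Between 32516 and 36274 probes were well above background per array, and the lowest correlation between any pair of arrays, across genes, was 0.97. The 7 hepatocyte markers measured were well above background on every array, and their summed linear level was 6838 to 7637 times the 75th-percentile signal in fasted livers, 6188 to 6767 times with glucose, 5972 to 6255 times with fructose and 6520 to 7766 times in the water group. Because whole liver was measured, fewer cells of a type and less RNA per cell cannot be told apart.

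Fasting was accompanied by higher mRNA levels of most genes of the 26S proteasome. Of the 45 genes, 30 rose and 6 fell in fasted against water-group livers, so that 80% were called, where 42.6% of all genes were called in this comparison. Higher calls made up 21.7% and lower calls 20.9% of all genes. The median log2 change of the 45 genes was 0.31, a 1.24-fold difference, against 0.020 for all genes. Changes were small for most members: only Psme3 and Psmd9 were called with a change of at least 2-fold, a size reached by 7.66% of all genes. In 19 genes every fasted mouse lay above every water mouse, and in 3 every fasted mouse lay below, together 48.9% of the members. Of all genes 24.3% were so separated, 12.3% higher and 12% lower. The gene-by-gene plot sets out these changes by class.

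**Figure D1:**
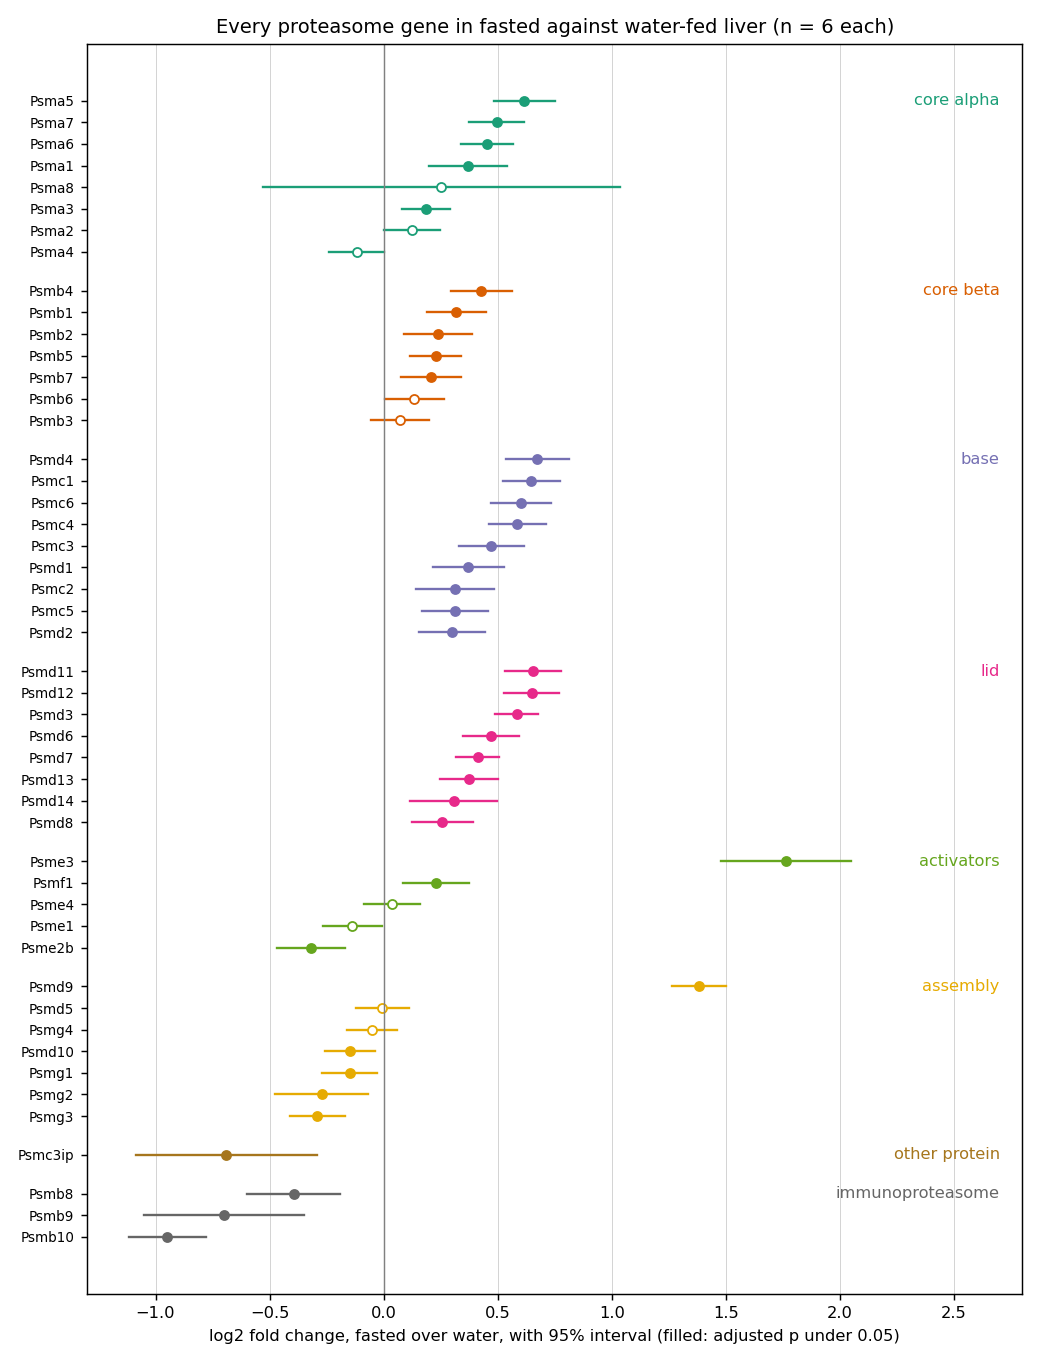
Log2 fold change of each proteasome gene, fasted over water (x axis), with its 95% interval, n = 6 mice per group; genes run down the page by class, filled points were called at an adjusted p under 0.05. All 9 base and all 8 lid genes lie right of 0, Psme3 (1.76) and Psmd9 (1.38) stand farthest right, and the 3 immunoproteasome genes, which are no members, lie left of 0.

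In the alpha ring, 5 of 8 genes rose and none fell, with a median log2 change of 0.31. Psma5 had the largest change of the ring. Its log2 level ran from 5.39 through a median of 5.68 to 5.83 in fasted livers, against 4.90, 5.04 and 5.12 in the water group. The groups did not overlap, and the log2 fold change was 0.62 ± 0.06 (SE, n = 6 each; adjusted p = 5.22e-08). Psma7 (0.50), Psma6 (0.45), Psma1 (0.37) and Psma3 (0.19) also rose on the log2 scale. Psma2 differed by 0.12 and was not called. Psma4 had a negative difference and was not called: its log2 level was 6.26 at the lowest, 6.59 at the median and 6.67 at the highest in fasted livers, and 6.60, 6.68 and 6.71 in water livers. These ranges overlapped, and the difference was -0.12 with a 95% interval of -0.24 to 0.0035 (adjusted p = 0.114). It reached the threshold under quantile normalization (-0.21, adjusted p = 0.00349) and in the deposited series table (-0.19, adjusted p = 0.00868). Psma8, an alpha subunit known from testis, differed by 0.25 ± 0.38 (SE) and was not called.

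In the beta ring, 5 of 7 genes rose and none fell, with a median log2 change of 0.23. Psmb4, a structural subunit, had the largest difference, 0.43, with no overlap between fasted and water mice. Among the genes for the 3 cutting subunits, Psmb5 (chymotrypsin-like site) rose by 0.23 and Psmb7 (trypsin-like site) by 0.21 on the log2 scale, while Psmb6 (caspase-like site) differed by 0.13 and was not called (adjusted p = 0.0923). Psmb1 (0.32) and Psmb2 (0.24) rose as well. Psmb3 had one of the smallest differences: its log2 level was 6.35, 6.65 and 6.73 (lowest, median, highest) in fasted livers and 6.44, 6.53 and 6.57 in water livers, with overlapping ranges and a difference of 0.07 ± 0.06 (SE; adjusted p = 0.373).

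All 9 genes of the base rose, with a median log2 change of 0.47, and in 6 of them the fasted and water groups did not overlap. The base gene with the largest change was Psmd4, a ubiquitin receptor. It stood at 6.91, 7.17 and 7.34 (lowest, median and highest log2 level) in fasted livers and at 6.33, 6.48 and 6.62 in water livers. All fasted values lay above all water values, by a mean log2 difference of 0.67 ± 0.07 (SE; adjusted p = 2.78e-08). The 6 ATPase genes of the ring that unfolds substrates all rose. Psmc1 had log2 levels of 7.22, 7.33 and 7.47 in fasted mice, against 6.58, 6.72 and 6.79 in water mice, a difference of 0.65 ± 0.06 (SE; adjusted p = 9.05e-09). Psmc6 had 5.43, 5.67 and 5.73 in fasted mice and 4.92, 5.02 and 5.11 in water mice, a difference of 0.60 ± 0.06 (SE; adjusted p = 5.60e-08). Neither gene's groups overlapped. Psmc4 likewise stood apart, at 5.05, 5.27 and 5.39 in fasted livers and 4.52, 4.66 and 4.72 in water livers, a difference of 0.58 ± 0.06 (SE; adjusted p = 4.53e-08). The other ATPase genes rose by 0.47 (Psmc3), 0.31 (Psmc2) and 0.31 (Psmc5). Psmd1 and Psmd2, the large scaffold subunits, rose by 0.37 and 0.30.

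All 8 lid genes rose too, with a median log2 change of 0.44 and no overlap in 6. Psmd11, which ties the lid to the core, led the lid with log2 levels of 3.48, 3.74 and 3.80 in fasted livers and 2.96, 3.03 and 3.16 in water livers, a difference of 0.65 ± 0.06 (SE; adjusted p = 7.36e-09). Psmd12, a scaffold subunit of the lid, had 6.16, 6.23 and 6.42 in fasted livers and 5.54, 5.58 and 5.73 in water livers, a difference of 0.65 ± 0.06 (SE; adjusted p = 5.08e-09). In both genes each fasted mouse exceeded each water mouse. The structural lid genes Psmd3 (0.58), Psmd6 (0.47), Psmd13 (0.37) and Psmd8 (0.26) rose. Psmd14, the enzyme that cuts off the ubiquitin chain, rose by 0.31, and its partner Psmd7 by 0.41. Over core, base and lid without the testis gene Psma8, 27 of 31 genes rose and none fell.

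The 31 genes did not shift evenly across the fasted mice. The lowest fasted value belonged to fasted mouse 2 in 25 of the 31 genes and to fasted mouse 4 in the other 6. The median difference of the 14 core genes from the water group's mean was 0.06 in fasted mouse 2 and 0.10 in fasted mouse 4, and 0.27 to 0.40 in the other 4 fasted mice. For the base it was 0.22 in fasted mouse 2 and 0.41 to 0.61 in the rest, and for the lid 0.36 in fasted mouse 2 and up to 0.58. Water mice lay between -0.08 and 0.06 in these 3 classes. The median SD of the 31 genes within a group was 0.138 in fasted livers, 0.0788 with glucose, 0.0829 with fructose and 0.0706 with water. The SD was larger in fasted than in water livers for 30 of the 31 genes, and for 60.1% of all genes. The fit shares 1 spread per gene among the 4 groups. For these genes the printed SE can therefore be too small in fasted comparisons. A fit of the fasted and water groups alone called 29 members higher and 3 lower. With fasted mouse 2 left out, 32 members were called higher and 3 lower.

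**Figure D2:**
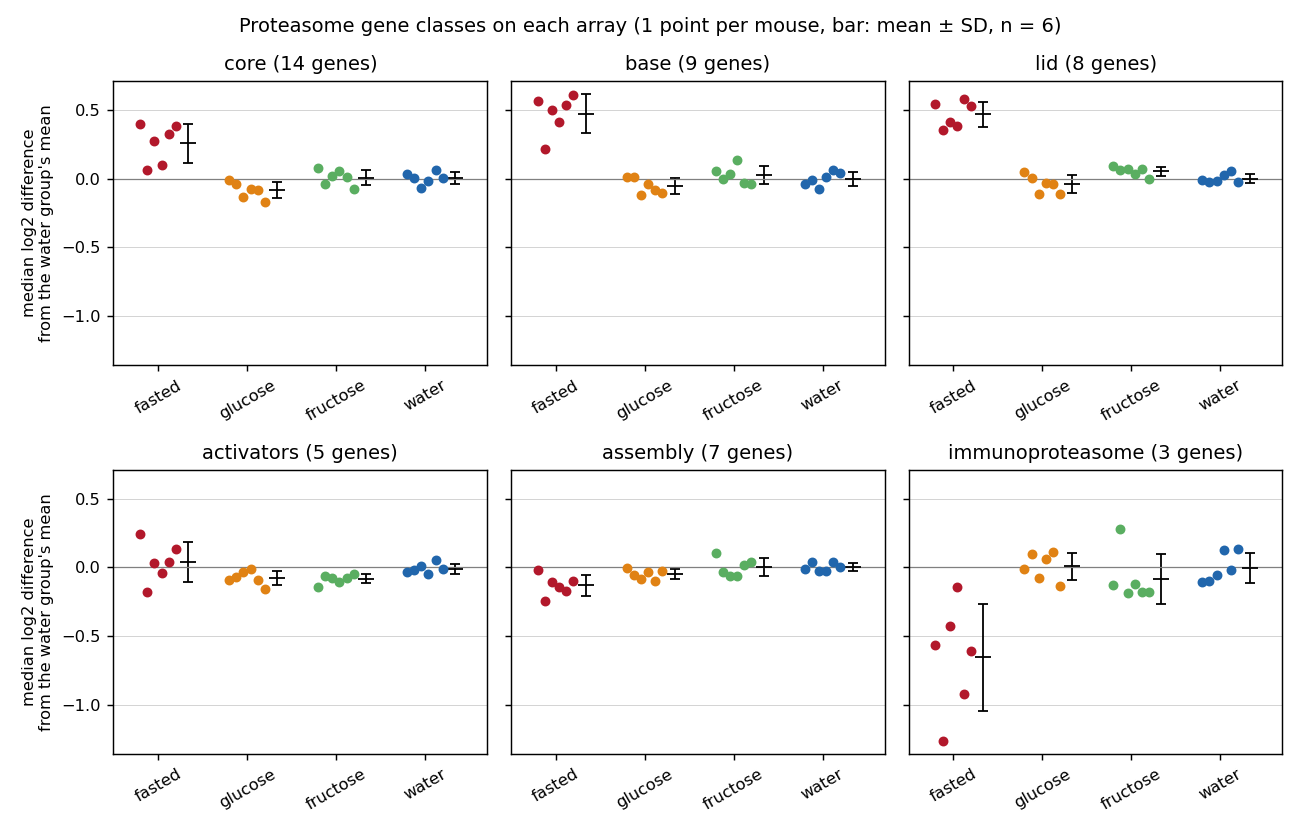
Median log2 difference of each class of genes from the water group's mean (y axis), 1 point per mouse, with the mean and SD of each group beside the points (n = 6); Psma8 and Psmc3ip are left out. Fasted mice lie above 0 for core (0.06 to 0.40), base (0.22 to 0.61) and lid (0.36 to 0.58), and below 0 for assembly factors and immunoproteasome genes.

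The activators and the inhibitor did not move as a group: of 5 genes 2 rose and 1 fell, with a median log2 change of 0.04. Psme3 encodes the nuclear activator PA28 gamma, which opens the core without ubiquitin or ATP, and had the largest change of all members. Its log2 level was 5.70, 6.15 and 6.52 (lowest, median, highest) in fasted livers, against 4.13, 4.25 and 4.69 in the water group. The groups were far apart, with a log2 fold change of 1.76 ± 0.14 (SE), a 3.40-fold difference (adjusted p = 6.48e-10). That value comes from the probe against the RefSeq transcript (mm9 chromosome 11, 101184289 to 101184348, on the array's design). A dimmer Psme3 probe, designed on an Ensembl transcript at 101178390 to 101178649 of the same chromosome, gave -0.09 (adjusted p = 0.278), so that the mean of both probes was 0.84 (adjusted p = 9.36e-09). Psmf1, an inhibitor of the core, rose by 0.23.

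Neither gene read for the interferon-inducible activator PA28 alpha-beta was called higher. Psme2b, named after the beta gene Psme2, fell by 0.32 on the log2 scale, with log2 levels of 5.61, 6.01 and 6.06 in fasted livers and 6.19, 6.25 and 6.34 in water livers. No fasted mouse reached the lowest water mouse. Whether this probe also reads Psme2 was not tested. Psme1, the alpha gene, differed by -0.14 and was not called (adjusted p = 0.0832), though it passed under quantile normalization (adjusted p = 0.0141). Psme4, the activator PA200, had overlapping log2 levels: 5.22, 5.44 and 5.65 in fasted livers and 5.28, 5.42 and 5.46 in water livers, a difference of 0.04 with a 95% interval of -0.09 to 0.16.

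**Figure D3:**
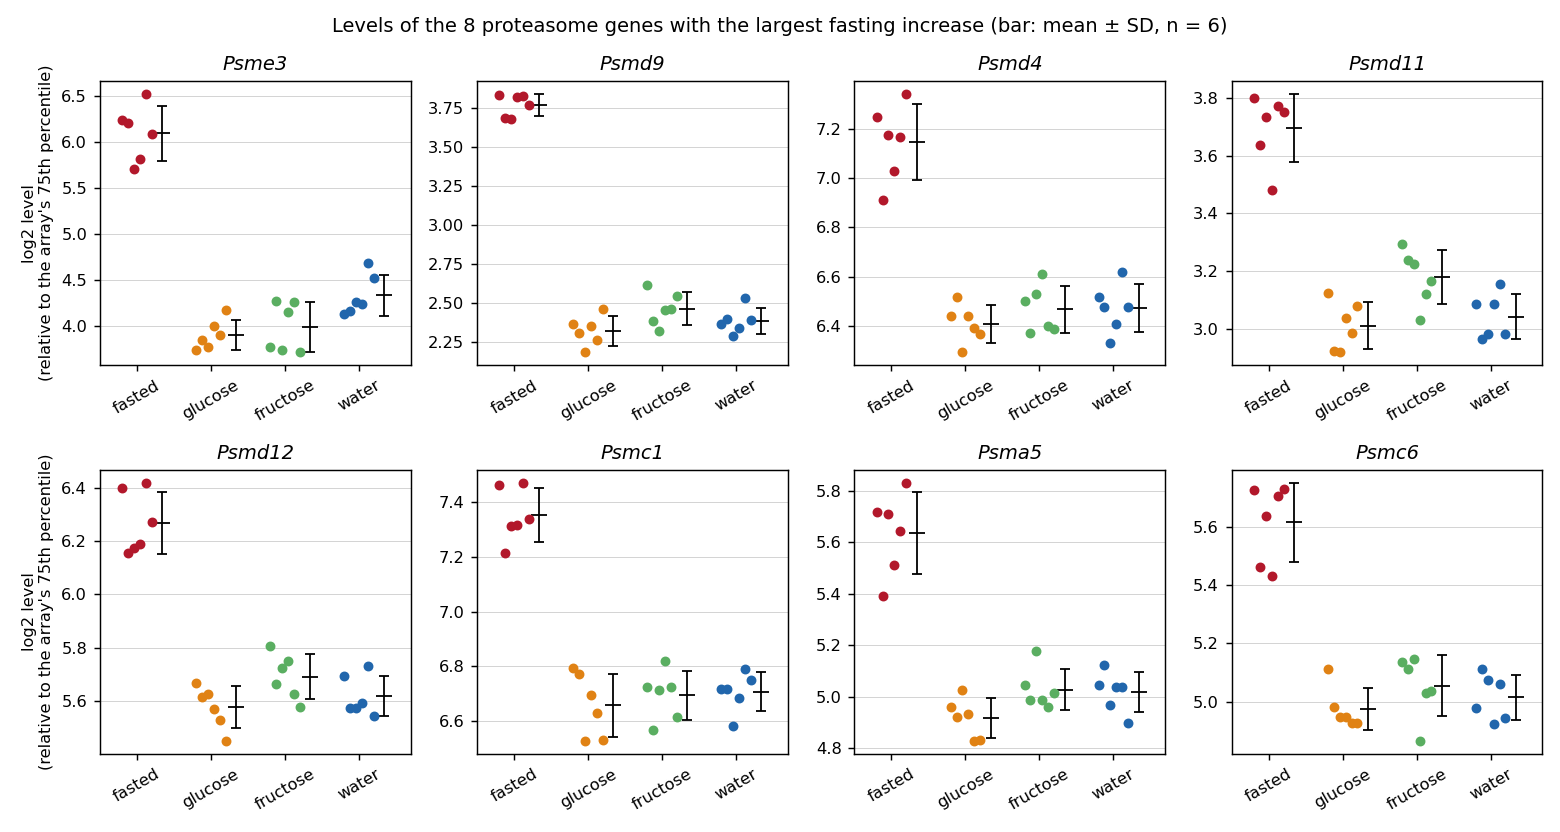
Log2 level relative to the array's 75th percentile (y axis, a scale of its own in each panel) of the 8 proteasome genes with the largest increase in fasted over water livers, 1 point per mouse, with the mean and SD of each group (n = 6). In every panel the 6 fasted mice lie above the 6 water mice; Psme3 runs from 5.70 to 6.52 in fasted livers and from 4.13 to 4.69 in water livers.

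Of all genes 21.7% were called higher and 20.9% lower in fasted against water livers. Among the 7 assembly factors 1 rose and 4 fell. Their median log2 change was -0.15, opposite in sign to the subunits they help to join. The exception was Psmd9, a chaperone of the base known as p27. It stood at 3.68, 3.80 and 3.83 in fasted livers and at 2.29, 2.38 and 2.53 in water livers. Its log2 fold change of 1.38 ± 0.06 (SE) was a 2.61-fold difference (adjusted p = 4.91e-14), the second largest among the members. The other chaperones of the base were Psmd10 (gankyrin), which fell by 0.15, and Psmd5, with log2 levels of 2.40, 2.55 and 2.62 in fasted livers and 2.47, 2.52 and 2.64 in water livers. Psmd5 differed by -0.01 with a 95% interval of -0.12 to 0.11. The chaperones of the alpha ring were lower or not called: Psmg3 fell by 0.29, Psmg2 by 0.27 and Psmg1 by 0.15. Psmg4 had 1.67, 1.70 and 1.83 in fasted livers and 1.72, 1.78 and 1.82 in water livers, a difference of -0.05 (adjusted p = 0.464). The lower calls of Psmd10 (adjusted p = 0.0282), Psmg1 (0.0391) and Psmg2 (0.0291) lay close to the threshold and were lost with single mice left out, such as fasted mouse 2 and fasted mouse 5. The second Psmg3 probe gave 0.09 and was not called. Of the other Psmg2 probes, 1 gave -0.04 (adjusted p = 0.741) and 1 gave -0.34 (adjusted p = 0.00566). The second Psmg1 probe gave -0.14 and was not called (adjusted p = 0.0604).

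Psmc3ip, which is no proteasome gene despite its name, had log2 levels of -2.98, -2.41 and -2.15 in fasted livers and -2.02, -1.77 and -1.67 in water livers. It fell by 0.69 ± 0.19 (SE; adjusted p = 0.00516), with no overlap.

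The immunoproteasome genes, left out by the selection rule, all fell in fasted livers (3 of 3). Psmb10 takes the place of Psmb7, and had log2 levels of 4.54, 4.80 and 5.18 in fasted livers and 5.65, 5.82 and 5.89 in water livers. It fell by 0.95 ± 0.08 (SE), a 1.93-fold difference (adjusted p = 3.24e-09). Psmb9, which takes the place of Psmb6, fell by 0.70 ± 0.17 (SE; adjusted p = 0.00171), with 1.44, 2.38 and 2.82 in fasted livers and 2.86, 2.89 and 3.22 in water livers. Psmb8, which takes the place of Psmb5, fell by 0.39 ± 0.10 (SE; adjusted p = 0.00216), and here the groups overlapped. Fasted mouse 2 was the lowest for all 3 genes. Immune cells are rich in these subunits: of 10 immune cell markers, 1 was higher (Marco) and 1 lower (Nkg7) in fasted livers, and their summed linear level ran from 105 to 152 times the 75th-percentile signal in fasted and from 101 to 138 times in water livers. The general leukocyte marker Ptprc differed by -0.04 and was not called. The part of immune cells in these values was not tested.

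**Figure D4:**
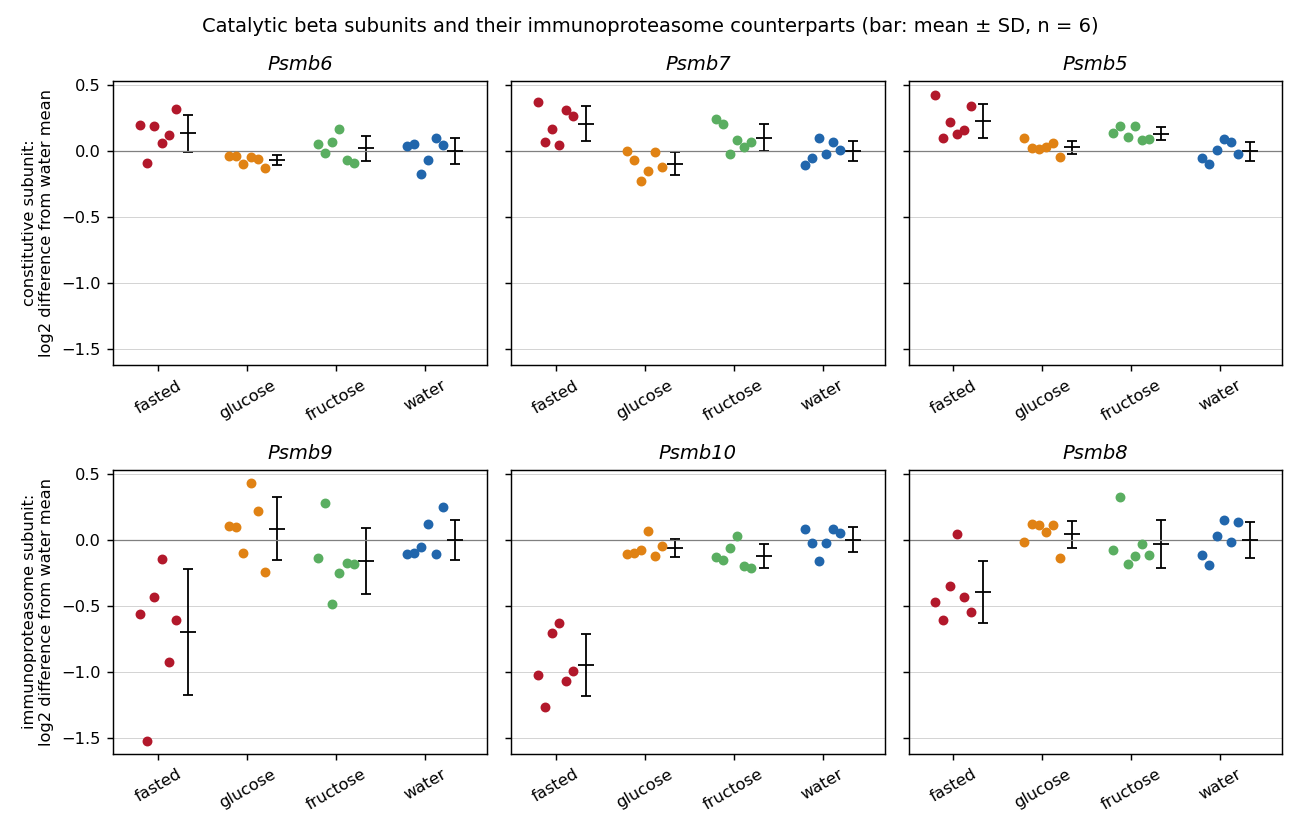
Log2 difference from the water group's mean (y axis) for the 3 catalytic beta subunits Psmb6, Psmb7 and Psmb5 (upper row) and, below each, the immunoproteasome subunit that replaces it (Psmb9, Psmb10, Psmb8), 1 point per mouse, with the mean and SD of each group (n = 6). Fasted means lie above the water mean in the upper row (0.13 to 0.23) and below it in the lower row (-0.95 to -0.39).

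Arrays were run on 3 slides, each with 2 mice of every group. With slide as a block, 30 members were higher and 6 lower in fasted against water livers. Within single slides, 2 mice were set against 2. The members' median log2 change was 0.30 on slide 1, 0.15 on slide 2 and 0.42 on slide 3. Of the 45 members, 34, 30 and 36 were positive. Over the 3 slides together 52.6% of all genes were positive, and no share of all genes is given for single slides. Slide 2 held fasted mouse 2 and fasted mouse 5. All 36 called members kept their sign on every slide. These members were picked on the same mice pooled over the 3 slides. The agreement is therefore partly built in and is no separate test.

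NRF1, the product of Nfe2l1, is known to switch on proteasome genes when degradation falls short. It works through antioxidant response elements and after processing by the enzyme NGLY1 and the protease DDI2. Of 9 genes on a wider list of regulators, 7 rose in fasted livers and none fell. The list also holds Foxo1, Keap1 and Foxo3, so the count is not one of the NRF1 pathway alone. On the log2 scale Foxo1 rose by 0.45 and Keap1 by 0.29, while Foxo3 differed by 0.23 and was not called. Maff (2.71-fold) and Mafg (1.60-fold) encode small MAF proteins, the DNA-binding partners of NRF1, Nfe2l1 itself rose 1.54-fold, and Ngly1 rose 1.48-fold. Nfe2l2, which encodes the related factor NRF2, differed by -0.06 on the log2 scale and was not called. Of 16 measured partners of the proteasome outside the name pattern, 7 rose and 1 fell, so that 50% were called, near the 42.6% of all genes. By direction, 21.7% of all genes were called higher and 20.9% lower, a more even split than among these partners. Ddi2 was 1.27-fold higher. Zfand5, which stimulates the 26S particle, rose 1.92-fold. Adrm1, a ubiquitin receptor of the base, rose by 0.52 on the log2 scale. Sem1, a small lid subunit, fell by 0.11 on the log2 scale, and Pomp, the maturation factor of the core, differed by -0.01.

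Upstream of the proteasome, 6 of 8 genes of the p97 unfoldase and its cofactors rose and 1 fell, led by Ubxn1 (1.68-fold) and Nploc4 (1.59-fold), with Derl1 1.19-fold lower. Vcp, the gene for p97 itself, differed by 0.11 and was not called (adjusted p = 0.0811). Of 6 ubiquitin and E1 genes, none rose and 2 fell, a share of 33.3% that lies below that of all genes. Uba6 fell by 0.59 and Uba1 by 0.14 on the log2 scale. Against glucose and against fructose livers, 1 of the 6 was higher and 2 were lower in fasted livers. Of 10 ubiquitin ligase genes, 6 rose and none fell. Fbxo31 (4.21-fold), Fbxo32 (2.84-fold), which encodes the muscle ligase atrogin, and Nedd4l (1.66-fold) had the largest changes. The shares called were 77.8% of the regulators, 87.5% of the p97 genes and 60% of the ligases, beside the same 42.6% of all genes.

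Promoter sequence was looked at for members that rose together, in the RefSeq windows of 250 bases before to 50 bases after each start site (GRCm38.p6), which list 37 of the 45 members. The core of the antioxidant response element, TGACNNNGC on either strand, was found in 6 of the 37 (16.2%), and in 14% of all 27025 genes listed. It was present in 4 of 24 members called higher in fasted livers and in 2 of the other 13. The 4 are Psmb5, Psmc6, Psmd12 and Psmd9, and their windows are printed 5′ to 3′ with the match in capitals; in Psmc6 and Psmd12 it lies on the opposite strand, so that the capitals show its complement read backwards. CCAAT, on either strand, was found in 13 of 37 members (35.1%) and in 41.1% of all genes, and GTAAACA, a forkhead motif, in 0 of 37 members and 4.05% of all genes. None of the 4 printed windows holds CCAAT, so the matches do not overlap. The window of Psme3, the member with the largest change, is shown with its CCAAT match, on the opposite strand, in capitals.
Psmd9 (chr5:123227940-123228239, plus strand): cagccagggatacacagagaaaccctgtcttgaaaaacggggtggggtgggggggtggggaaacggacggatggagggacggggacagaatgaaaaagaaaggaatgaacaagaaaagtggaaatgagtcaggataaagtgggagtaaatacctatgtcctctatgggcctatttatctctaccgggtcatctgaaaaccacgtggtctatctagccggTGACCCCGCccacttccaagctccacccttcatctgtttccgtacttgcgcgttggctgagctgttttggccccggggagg
Psmb5 (chr14:54617946-54618245, minus strand): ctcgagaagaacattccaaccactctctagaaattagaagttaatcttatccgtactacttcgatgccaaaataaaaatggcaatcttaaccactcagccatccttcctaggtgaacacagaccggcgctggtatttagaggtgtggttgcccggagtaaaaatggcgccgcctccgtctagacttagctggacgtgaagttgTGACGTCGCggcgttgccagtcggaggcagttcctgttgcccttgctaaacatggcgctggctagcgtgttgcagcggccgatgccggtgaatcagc
Psmc6 (chr14:45329574-45329873, plus strand): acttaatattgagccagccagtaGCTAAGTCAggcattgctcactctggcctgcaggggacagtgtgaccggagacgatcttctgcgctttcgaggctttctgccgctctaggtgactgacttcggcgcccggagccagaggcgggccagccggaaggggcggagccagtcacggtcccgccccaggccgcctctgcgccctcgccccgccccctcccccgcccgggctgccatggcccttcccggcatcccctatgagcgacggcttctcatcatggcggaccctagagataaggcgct
Psmd12 (chr11:107479278-107479577, plus strand): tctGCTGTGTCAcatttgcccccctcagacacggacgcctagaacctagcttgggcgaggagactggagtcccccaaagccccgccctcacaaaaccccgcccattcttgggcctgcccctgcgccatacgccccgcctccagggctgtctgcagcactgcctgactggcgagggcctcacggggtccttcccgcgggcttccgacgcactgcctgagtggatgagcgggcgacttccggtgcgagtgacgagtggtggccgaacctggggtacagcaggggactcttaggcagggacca
Psme3 (chr11:101315963-101316262, plus strand): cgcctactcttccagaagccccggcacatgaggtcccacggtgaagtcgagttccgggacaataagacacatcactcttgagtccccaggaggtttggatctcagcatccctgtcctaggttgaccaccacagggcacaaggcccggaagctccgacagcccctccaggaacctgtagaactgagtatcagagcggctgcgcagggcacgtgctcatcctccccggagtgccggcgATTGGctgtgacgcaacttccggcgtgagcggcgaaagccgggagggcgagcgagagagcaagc

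Sugar in the drinking water was accompanied by no called change in any proteasome gene. In glucose against water livers limma called 0 of 45 members, with 3 at an unadjusted p under 0.05, where 0.83% of all genes were called and 11.4% had such an unadjusted p. The members' median log2 change was -0.06, against -0.0047 for all genes. Of the 7 hepatocyte markers, 1 (Ass1) was called lower with glucose, and the part of this in the members' values was not tested. The lowest of the 3 p-values belonged to Psme3, which averaged 3.90 ± 0.16 with glucose and 4.33 ± 0.22 with water (log2 level, SD, n = 6 each), a difference of -0.43 with a 95% interval of -0.71 to -0.15 (adjusted p = 0.162). The others were Psma1 (-0.18) and Psma6 (-0.15). The Psme3 values come from its brighter probe. On the dimmer Psme3 probe, log2 levels overlapped, from -0.08 to 0.21 with glucose and from -0.09 to 0.12 with water.

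In fructose against water livers limma again called 0 of 45 members, with 6 at an unadjusted p under 0.05, where 0.88% of all genes were called and 15.9% had such an unadjusted p. The median log2 change of the members was 0.010, against -0.012 for all genes. Of the 7 hepatocyte markers, all of which had a negative log2 difference here, 2 (Ass1 and Apoa1) were called lower with fructose, and the part of this in the members' values was not tested. Psme3 averaged 3.98 ± 0.27 with fructose against the same water mean, a difference of -0.35 with a 95% interval of -0.63 to -0.07 (adjusted p = 0.203). On the dimmer Psme3 probe, log2 levels overlapped, from -0.06 to 0.28 with fructose and from -0.09 to 0.12 with water. Psmd5 (0.14), Psmd11 (0.14), Psmb5 (0.13), Psmg4 (0.12) and Psmd3 (0.10) were positive on the log2 scale. Without Psma8, whose interval is wide, the core, base and lid genes differed from water by -0.06 to 0.14 with fructose and by -0.18 to 0.03 with glucose.

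Fructose against glucose livers gave 0 called members, as it gave 0 called genes among all 23966 by limma. There, 7 members and 7.8% of all genes had an unadjusted p under 0.05. The direction was even: 41 of 45 members, and every core, base and lid gene, had a higher mean with fructose, where 49.6% of all genes did. The sizes were small, with a median log2 difference of 0.08. The lowest unadjusted p belonged to Psmd5, at 2.69 ± 0.11 with fructose and 2.48 ± 0.06 with glucose (log2 level, SD, n = 6 each), a difference of 0.21 with a 95% interval of 0.10 to 0.33 (adjusted p = 0.427). Psmb7 followed with a difference of 0.20. Members vary together from mouse to mouse, so their common sign is not 45 separate observations.

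**Figure D5:**
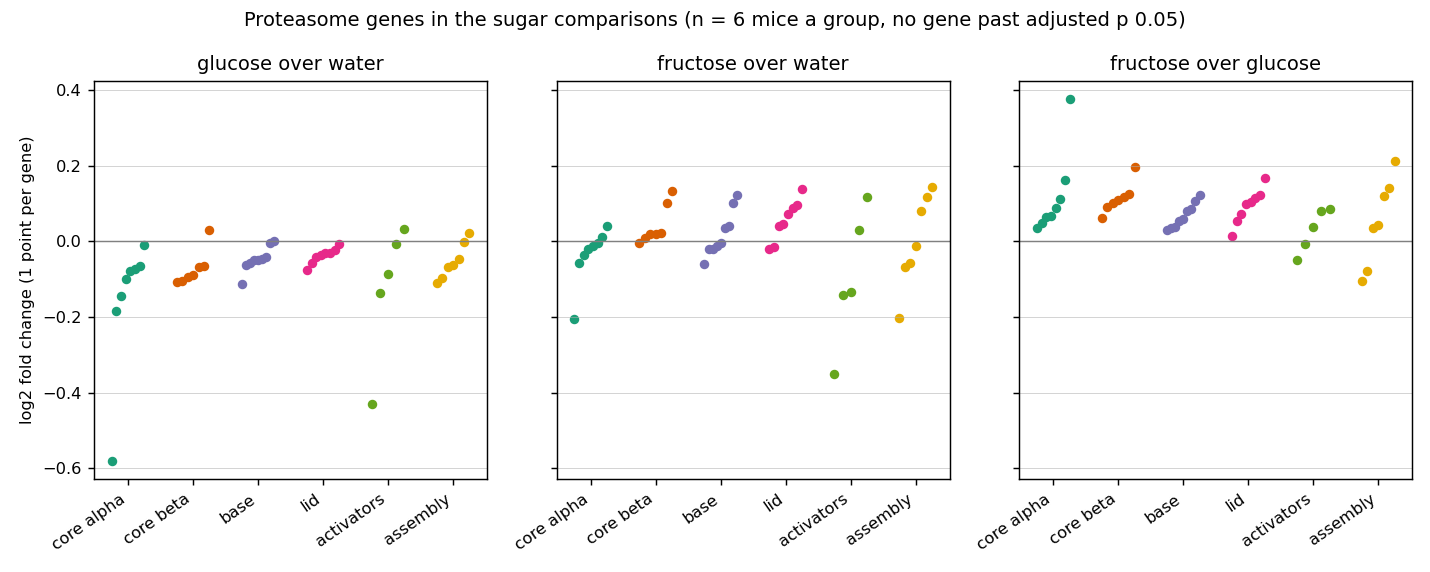
Log2 fold change of each proteasome gene by class (1 point per gene) for glucose over water, fructose over water and fructose over glucose (n = 6 mice per group). No gene was called; Psma8 and Psme3 are the lowest points in the glucose panel (-0.58 and -0.43), and all core, base and lid points lie above 0 in the fructose over glucose panel.

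Fasted livers were also set against the sugar groups. Fasted and glucose livers differed in 36 of 45 members, 32 higher and 4 lower in fasted (80%), where 44.6% of all genes were called, 22.6% higher and 21.9% lower, with a median log2 change of 0.38. Fasted and fructose livers differed in 35, 28 higher and 7 lower in fasted (77.8%), where 45.3% of all genes were called, 23.4% higher and 21.9% lower, with a median of 0.33. Of the 7 hepatocyte markers, 3 were called higher and 1 lower in fasted against glucose livers, and 5 higher and 0 lower against fructose livers. Their part in these results was not tested. All 3 comparisons share the fasted mice, so they are not separate observations. Base and lid genes were all called higher in both. In the core, 12 of 15 rose against glucose and 8 of 15 against fructose, none falling. By its brighter probe, Psme3 was 4.57-fold higher in fasted than in glucose livers and 4.33-fold higher than in fructose livers. Its dimmer probe did not show this, with overlapping log2 levels of -0.17 to 0.01 in fasted, -0.08 to 0.21 in glucose and -0.06 to 0.28 in fructose livers. Psmd9 was 2.72-fold higher in fasted than in glucose livers and 2.47-fold higher than in fructose livers. Psmb10 was 1.85-fold lower in fasted than in glucose livers and 1.77-fold lower than in fructose livers.

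Ordered by group mean, the fasted group was the highest of the 4 for 14 of 15 core genes and for every base and lid gene. The glucose group was the lowest for 13 of 15 core genes and again for every base and lid gene, although no difference between fed groups passed the test for these genes. Among the assembly factors the fasted group was the lowest for 5 of 7. No share of all genes is given for these orders, so the counts have no reference. Members vary together from mouse to mouse, and the same mice enter every gene, so the counts are not separate observations.

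With each group's mean removed, proteasome genes still varied together from mouse to mouse. Over the 24 arrays the mean pairwise correlation was 0.64 among core genes, 0.54 among base genes, 0.33 among lid genes and 0.59 between base and core genes. It was 0.15 among assembly factors and 0.09 among activators. Among the immunoproteasome genes it was 0.59, and between them and the core 0.15. The points share array, scaling and RNA sample. Fasted livers had the larger spread. The median SD of core, base and lid genes without Psma8 was 0.138, against 0.0706 to 0.0829 in the fed groups. Fasted mice therefore weigh more in these correlations. The fed groups alone were not tested, and no value for all genes is given.

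The genes outside the family whose pattern over the 24 arrays was most like the mean of the members were Slc25a13 (r = 0.98), which encodes the mitochondrial aspartate-glutamate carrier citrin, a transcript the array names only by an Ensembl identifier (0.97), Sec23a (0.97), a coat protein of vesicles leaving the endoplasmic reticulum, Chchd2-ps (0.97) and Rtf2 (0.96). These correlations carry the difference between fasted and fed mice. With group means removed they were 0.84 for Slc25a13, 0.76 for Sec23a, 0.86 for Chchd2-ps and 0.77 for Rtf2. The highest values of that kind, 0.87 to 0.91, belonged to other genes. Of these, Cltc, Gfm2 and Adtrp had 0.78, 0.84 and 0.92 over the 24 arrays, but Impa1 had -0.43 and Eif2s1 0.02. A high value with group means removed therefore does not by itself mark a gene as like the members.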

How the data were processed

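Liver RNA of 24 mice was read on 1-colour Agilent arrays. The deposited scanner files hold a background-subtracted spot intensity from Agilent Feature Extraction 10.10.1.1, per the file headers. A second deposited table holds the authors' own log2 values for the same arrays. The submitters' processing notes name limma, and how that table was scaled is not given in the sources used here. It served as an alternative.

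Control spots and outlier-flagged spots were left out, spots of a probe were averaged as log2 intensity, and each array's 75th percentile was subtracted. Probes well above background on at least 6 arrays were kept, and the brightest probe per gene was used. All 24 arrays entered 1 limma fit (R 4.3.3, limma 3.58.1) of 4 group means, with Benjamini-Hochberg adjustment over 23966 genes within each comparison. The number of arrays limits the precision. The fit was tested on simulated data with independent genes and 1 spread per gene shared by all groups. Those data lack the larger spread of fasted livers and the shared variation of the members, so the test does not cover either.

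Every member is named. Per-mouse ranges are given for the 10 largest and 5 smallest differences between fasted and water livers, and up to 3 members of each context list are named, those with the largest changes; 1 such gene is not reported here. The members, the lists of regulators, partners, p97, ubiquitin, ligase and cell type marker genes, and the motifs were chosen with earlier results of these data known. Context genes named beyond that rule, such as Ddi2, Nfe2l2, Sem1, Pomp and Vcp, were chosen after their values were seen. Alternatives covered scaling, background, filter, probe choice, slide and replicate blocks, single slides, array weights and single arrays left out. Promoters come from RefSeq tables of GRCm38.p6, and probe positions come from the array's design (mm9). No protein sequences were used here.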

Additional observations from a re-analysis of the deposited data

Results flagged for a closer look

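In 10 of 192 sets of 6 mice (48 genes in 4 groups), 1 mouse lay farther from its neighbour than Dixon's 95% limit allows, and chance alone marks about 1 in 20 sets. Values are log2 levels. Among fasted mice, mouse 3 was high for Psma8 (0.0492, nearest mouse -1.12), and mouse 2 was low for Psmd13 (5.66, nearest 5.87) and for Psme2b (5.61, nearest 5.89). Among glucose mice, mouse 6 was low for Psma4 (6.48, nearest 6.59) and for Psme2b (5.96, nearest 6.16), and mouse 1 was high for Psmc6 (5.11, nearest 4.98). Among fructose mice, mouse 6 was low for Psme4 (5.43, nearest 5.51) and mouse 2 high for Psmb8 (3.41, nearest 3.06). In the water group, mouse 3 was low for Psmb4 (6.84, nearest 7) and for Psmg2 (2.38, nearest 2.65). Only 3 of the 10 values were high.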

How the results depend on the processing

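Of the 36 members called in fasted against water livers, 33 stayed called in the same direction with any 1 of the 12 mice left out, and 29 under all of 12 other settings beside single slides. None turned round while called. The 3 lost with single mice were Psmd10, Psmg1 and Psmg2, and median scaling, an unfiltered fit or a fit of the 2 groups alone lost the same 3. Psma3 was lost under quantile normalization, median scaling and in the deposited series table, Psmb2 under median scaling and the 2-group fit, Psmb7 under median scaling, and Psmg3 with the mean of its probes. The number of lower calls is therefore the unsteady one. For fasted against water, glucose and fructose in turn it was 6, 4 and 7. It became 3, 2 and 3 with median scaling. It was 7 against glucose with quantile normalization, 3 against water and 3 against fructose with no filter, 3 and 2 against these groups in the 2-group fit, and 4 against fructose with array weights. With 1 mouse left out it ran from 3 to 7 against water and from 3 to 7 against fructose. Leaving out fasted mouse 2 or fasted mouse 5 gave 3 against water. Against fructose it was 4 without fasted mouse 2, 3 without fasted mouse 5, and 3, 3 and 4 without fructose mice 1, 2 and 5. The causes were not tested. Single slides hold 2 mice per group and made fewer calls. Against water, glucose and fructose in turn, higher calls were 14, 17 and 14 on slide 1. They were 9, 12 and 12 on slide 2, and 22, 23 and 21 on slide 3. Lower calls were 0, 1 and 0 on slide 1, 1, 1 and 1 on slide 2, and 0, 0 and 1 on slide 3. The shares of all genes called on single slides are not given here, so these counts have no reference. The members' median log2 change against water was 0.15 on slide 2 and 0.42 on slide 3, against glucose 0.48 on slide 3, and against fructose 0.25 on slide 2. No member was called in any comparison of fed groups under any setting. Same-numbered mice of different groups had a mean correlation of 0.0334 (9 of 36 pairs over 0.1). For differently numbered mice it was -0.00671 (25 of 180 pairs over 0.1). Same-numbered mice were slightly more alike, but both means were small, and the numbers were not taken as pairs. With the replicate number as a block, 30 members were higher and 5 lower in fasted against water livers, Psmg1 being lost.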

Other observations

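Outside the proteasome genes, 1 regulator was called between fed groups. Maff, a small MAF protein, averaged -0.33 ± 0.22 with glucose and -1.01 ± 0.11 with water (log2 level, SD, n = 6 each), a 1.60-fold difference by limma (adjusted p = 0.0408). With fructose against water Maff differed by 0.59 on the log2 scale and was not called. Fructose against glucose gave -0.09, so the change is not particular to glucose. No other gene on the lists of regulators, partners, p97, ubiquitin and ligase genes was called between fed groups. Among hepatocyte markers, 1 of 7 was lower with glucose and 2 of 7 with fructose, both against water (14.3% and 28.6%, where 0.83% and 0.88% of all genes were called). In fasted against water livers, where 42.6% of all genes were called, hepatocyte genes had 1 higher (Ass1) and 1 lower (Ttr) of 7 (28.6%). Endothelial and stellate genes had 4 higher and 3 lower of 8 (87.5%), with Lyve1 2.51-fold higher and Col3a1 3.60-fold lower. Red cell and cholangiocyte genes had 0 higher and 2 lower of 5, Alas2 and Krt19, and this 40% is about the share of all genes. The muscle genes on the same list were not among the 5 measured. Immune cell genes had 20% called. Against glucose livers (44.6% of all genes called), fasted livers had 57.1% of the hepatocyte, 87.5% of the endothelial and stellate, 60% of the red cell and cholangiocyte and 20% of the immune cell genes called. Against fructose livers (45.3% of all genes), the shares were 71.4%, 75%, 60% and 30% in the same order. Summed linear levels of the endothelial and stellate list ran from 96.1 to 116 in fasted livers and from 76.9 to 109 in water livers.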
